A study of Mus musculus with 96 samples.

Results

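The last straight segment of the mouse proximal tubule, in the outer stripe of the outer medulla (PTS3), was compared with the segment that follows it in a nephron with a short loop of Henle, the thin descending limb (DTL1). The comparison rests on 10 microdissected pieces, 6 of PTS3 and 4 of DTL1, out of 93 bulk samples of 14 tubule segments and the glomerulus; they were chosen by segment name and mouse number alone. The PTS3 pieces were pieces a and b of mice 1, 2 and 3, and the DTL1 pieces were piece a of mouse 1, pieces a and b of mouse 3 and piece b of mouse 5, so that 3 mice stood on each side. All mice were male C57BL/6 animals aged 6 to 8 weeks, with free access to water and normal chow and no allele or treatment that set the groups apart. Total RNA of each piece was turned into cDNA with an ultra-low input kit, and the deposited values are TPM, that is transcript levels per length, brought to a common sum per piece. Whether segments with the same mouse number came from the same animal is not stated.

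The S3 segment is the end of the proximal tubule, known for its tall brush border, secretion of organic anions and cations, peroxisomes and a glutathione-based detoxification apparatus. At its border with the thin limb the epithelium flattens abruptly and loses most of its brush border and mitochondria. The descending limb of short loops is known for the urea transporter UT-A2, a product of Slc14a2, through which urea from the vascular bundles re-enters the nephron, and for low or absent Aqp1, in contrast with the descending limb of long loops. Corin, a serine protease known for activating natriuretic peptides, is a further mark of this limb.

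Both marks stood where the labels put them. Slc14a2 was listed at 0 TPM in all 6 PTS3 pieces and reached 9809 (mouse 1), 7931 and 9677 (mouse 3) and 4052 TPM (mouse 5) in DTL1. Corin was 0.02 to 1.76 TPM (median 0.885) in PTS3 against 1127 (mouse 1), 895 and 1220 (mouse 3) and 464 TPM (mouse 5) in DTL1. The groups were fully apart for both genes, with mouse 5 the lowest of the DTL1 mice. For Corin the log2 difference was 8.84 (SE 0.40, adjusted p = 5.5e-06 by limma with Benjamini-Hochberg adjustment over all genes tested). Kap, the androgen-regulated kidney protein of the proximal tubule, was 52415 to 84836 TPM (median 79309) in PTS3 and 4198 (mouse 1), 798 and 1262 (mouse 3) and 2266 TPM (mouse 5) in DTL1. Napsa, a lysosomal aspartic protease of proximal cells, was 9739 to 14451 TPM (median 12652) in PTS3 and 577 (mouse 1), 225 and 217 (mouse 3) and 440 TPM (mouse 5) in DTL1. Both were far lower in every DTL1 piece, but neither was at 0 there. In RNA from a whole piece, fewer cells of a type cannot be told apart from less RNA per cell.

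The pieces of the segments differed in breadth as well as in genes, which bears on every value below. A PTS3 piece had 11291 to 11788 genes at 1 TPM or more and a DTL1 piece 26044 to 28418. Of 1457 odorant and vomeronasal receptor genes, which kidney tubules are not known to use as a class, 1 to 5 reached 1 TPM in a PTS3 piece and 636 to 746 in a DTL1 piece, where 18 (1.24%) had a mean of 10 TPM or more. Counts over all genes are therefore also given with a floor of 10 TPM in the higher group. List counts on a single scale carry no floor, and those on every scale (described below) do. Summed endothelial markers were 22.4 to 260 TPM in PTS3 pieces and 3774 to 6172 TPM in DTL1 pieces, and all 12 genes of that list were higher in DTL1 (9 of them on every scale described below), beside 70.9% of all genes tested (10.6% on every scale). Proximal markers summed to 81608 to 108910 TPM in PTS3 and 1879 to 6216 TPM in DTL1. Thick limb markers (0 to 5.44 against 228 to 520 TPM) and distal and collecting duct markers (0 to 8.51 against 62.8 to 154 TPM) were also above their PTS3 levels in every DTL1 piece. So were stromal (0 to 4.9 against 41.8 to 144 TPM), glomerular (0.18 to 2.83 against 63 to 128 TPM) and urothelial markers (0 against 8.59 to 14.7 TPM). Leukocyte markers reached 686 TPM in piece a of DTL1 mouse 3, with the other DTL1 pieces from 122 TPM and PTS3 at 39 to 128 TPM, and red cell markers were at most 2.52 TPM in any piece. Among the thick limb genes the sum came mainly from Umod (73 to 393 TPM in DTL1) and Cldn19, while the cotransporter Slc12a1 was at 1.58 to 7.99 TPM and Cldn16 at 0 to 0.31 TPM. How far these transcripts of other cells contributed to the differences below was not tested.

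**Figure D1:**
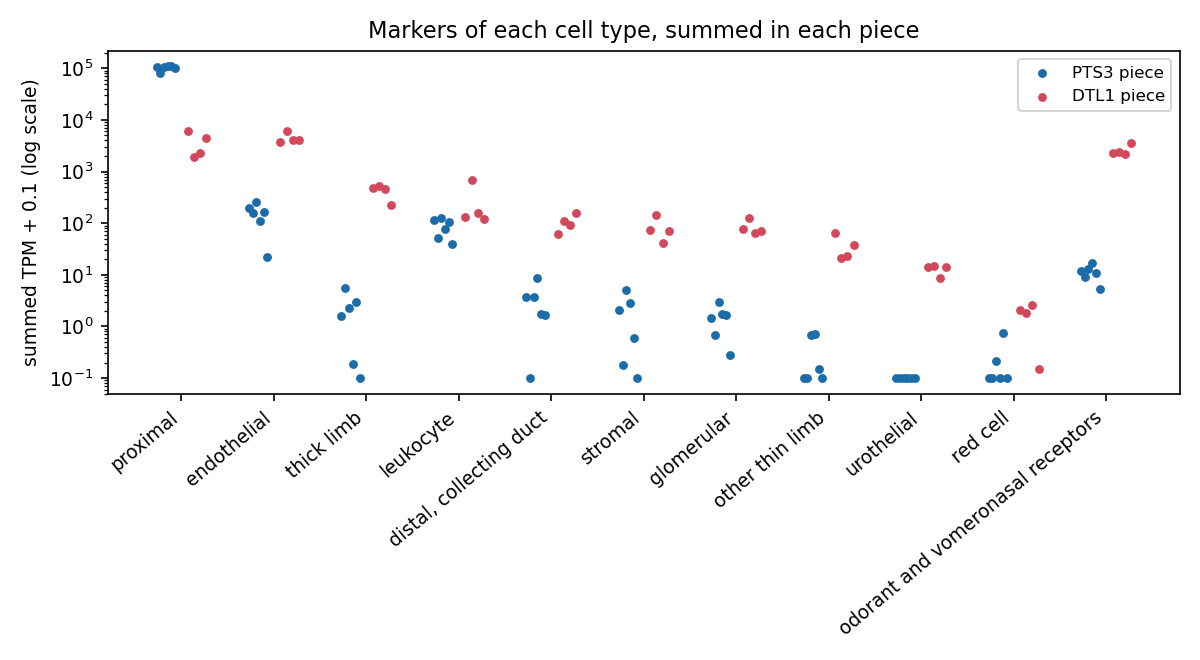
Summed TPM of the markers of 10 cell types and of the odorant and vomeronasal receptor genes (log axis, 0.1 added) in the 6 PTS3 and 4 DTL1 pieces, 1 point a piece. Proximal markers are lower in every DTL1 piece than in any PTS3 piece, while endothelial markers (3774 to 6172 TPM against 22.4 to 260 TPM) and receptor genes are higher.

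Of 54532 genes in the table, the 21146 with at least 1 TPM in 3 mice of the comparison were tested. A gene was called when its adjusted p was under 0.05 and its log2(TPM + 1) differed by at least 1. With a mean of 10 TPM in the higher group, 1027 genes (4.86% of those tested) were higher in PTS3 and 6955 (32.9%) higher in DTL1. The median over all tested genes was 1.77 log2 units higher in DTL1 as deposited, 0.95 after rescaling by median ratios and 0.03 after quantile normalization, and higher-in-PTS3 genes made up 7.46%, 25.7% and 53.6% of all calls respectively. Over all genes tested and with no floor, 1208 genes (5.71%) were higher in PTS3 and 14982 (70.9%) in DTL1 as deposited. Of the tested genes, 4298 were at 0 in every PTS3 piece and so passed the filter through the DTL1 mice alone. The same holds for genes under 1 TPM in every PTS3 piece, as were 1229 of those called higher in DTL1 with the floor. The filter fixes the direction of such genes, and the list counts include them. Where such a gene is named below, no p is given for PTS3 against DTL1. With no filter on low values, 17103 of 43313 genes (39.5%) were higher in DTL1 and 1151 (2.66%) in PTS3, with a median of 1.01 in favour of DTL1, so the 70.9% and 1.77 set beside the lists below hold for the filtered genes only. After median ratio rescaling these counts were 3473 (16.4%) and 10017 (47.4%), and 2920 (13.8%) and 3564 (16.9%) with the floor. After quantile normalization they were 3332 (15.8%) and 2890 (13.7%), and 1858 (8.79%) and 2701 (12.8%) with the floor. Among the 1958 genes at 50 TPM or more in both groups, the deposited values differed by a median of only 0.07 in favour of DTL1, and median ratio rescaling moved these genes by 1.45 towards PTS3. For this reason genes called in the same direction on all 3 scales with the 10 TPM floor are counted separately below as called on every scale, a rule added after the data were seen: 991 (4.69%) were higher in PTS3 and 2245 (10.6%) higher in DTL1. The rule kept 96.5% of the PTS3 calls and 32.3% of the DTL1 calls. Log2 differences are those of the deposited values unless stated, and they understate the change of genes near 0.

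**Figure D2:**
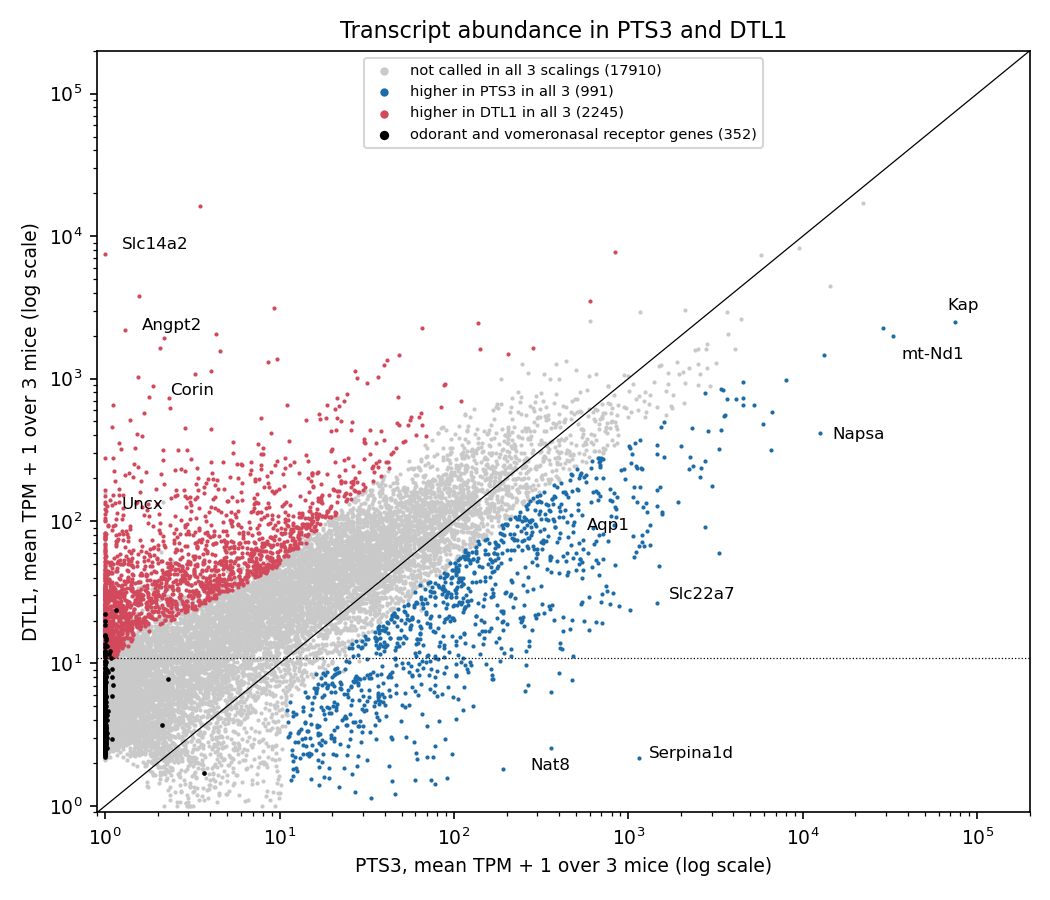
Mean TPM + 1 over 3 mice in PTS3 (x axis) and DTL1 (y axis) on log axes, 1 point for each of 21146 tested genes; blue and red points are the 991 and 2245 genes called on every scale, black points the receptor genes, the solid line equality and the dotted line 10 TPM in DTL1. Slc14a2 and Corin lie at the upper left, the receptor genes lie below the dotted line with few exceptions, and the PTS3 genes form a band below the line of equality rather than a cloud on the x axis.

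The genes with the largest differences in favour of PTS3 are given first. Serpina1d, one of the mouse copies of the alpha-1-antitrypsin gene, was 845 to 1453 TPM (median 1148) in PTS3 and 3.16 (mouse 1), 0.45 and 0 (mouse 3) and 0.18 TPM (mouse 5) in DTL1 (log2 difference 9.28, SE 0.48, adjusted p = 8.5e-06). Its copies are near-identical, so the share of each is uncertain. Nat8, which acetylates cysteine conjugates, was 244 to 482 TPM (median 351) against 3.15 (mouse 1), 0.59 and 3.12 (mouse 3) and 0 TPM (mouse 5) in DTL1 (log2 difference 7.33, SE 0.48, adjusted p = 2e-05). Every PTS3 piece was far above every DTL1 piece for both. The acyl-CoA synthetases Acsm1 and Acsm2 followed: Acsm2 was 2608 to 4116 TPM (median 3332) in PTS3 against 144 (mouse 1), 14.7 and 30.1 (mouse 3) and 11.8 TPM (mouse 5) in DTL1, with mouse 1 the highest of the DTL1 mice. The 20 genes with the largest differences also held the solute carriers Slc22a7, Slc22a18, Slc22a22 and Slc51b. Kng2, a kininogen, was 282 to 442 TPM (median 366) in PTS3 and spread widely, at 0.42 (mouse 1), 36.6 and 5.45 (mouse 3) and 0.79 TPM (mouse 5) in DTL1. Log2 differences of these 20 genes ran from 5.25 (Slc51b) to 9.28 (Serpina1d), and all 20 were called on every scale. Serpina1d differed by 9.88 without DTL1 mouse 1.

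Hnf4a, a factor known to hold proximal tubule identity, differed between the segments (below), so the 250 bases before the RefSeq start (GRCm38.p6) are shown for 3 PTS3 genes and 2 DTL1 genes, picked after the sequences had been searched. Aspdh, a dehydrogenase acting on aspartate, Slc3a1, the heavy subunit of the cystine carrier, and Treh, trehalase of the brush border, carry the HNF4 letters. Corin and Uncx, a homeobox gene, do not carry them within this window. Capitals mark CAAAGTCCA (HNF4) on either strand, and each sequence is read in the direction of its gene.
Aspdh, chr7:44465185-44465434, + strand: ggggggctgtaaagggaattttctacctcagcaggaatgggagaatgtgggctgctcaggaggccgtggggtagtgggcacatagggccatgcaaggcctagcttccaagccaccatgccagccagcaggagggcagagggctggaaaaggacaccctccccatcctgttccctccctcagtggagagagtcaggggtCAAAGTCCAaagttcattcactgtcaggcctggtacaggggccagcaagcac
Slc3a1, chr17:85028097-85028346, + strand: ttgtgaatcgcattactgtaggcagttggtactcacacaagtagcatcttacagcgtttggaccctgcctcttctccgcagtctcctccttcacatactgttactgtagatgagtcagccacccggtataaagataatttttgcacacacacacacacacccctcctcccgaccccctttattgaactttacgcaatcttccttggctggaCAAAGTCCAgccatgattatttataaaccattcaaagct
Treh, chr9:44672983-44673232, + strand: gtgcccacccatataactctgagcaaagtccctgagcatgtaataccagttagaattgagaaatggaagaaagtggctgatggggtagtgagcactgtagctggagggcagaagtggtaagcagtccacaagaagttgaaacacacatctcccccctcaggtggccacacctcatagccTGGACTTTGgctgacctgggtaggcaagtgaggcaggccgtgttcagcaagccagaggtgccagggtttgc
Corin, chr5:72504541-72504790, - strand: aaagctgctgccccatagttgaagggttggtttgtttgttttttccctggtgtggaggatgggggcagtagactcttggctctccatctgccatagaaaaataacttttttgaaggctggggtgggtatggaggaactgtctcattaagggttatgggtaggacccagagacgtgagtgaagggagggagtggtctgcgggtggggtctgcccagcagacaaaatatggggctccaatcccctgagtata
Uncx, chr5:139543648-139543897, + strand: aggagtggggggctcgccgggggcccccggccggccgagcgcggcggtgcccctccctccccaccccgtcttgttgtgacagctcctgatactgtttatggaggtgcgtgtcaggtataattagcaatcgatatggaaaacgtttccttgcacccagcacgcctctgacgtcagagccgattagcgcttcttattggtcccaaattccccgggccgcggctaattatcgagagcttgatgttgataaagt

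Over all genes with a RefSeq promoter in the table (27025 genes), 0.451% held CAAAGTCCA within this window. Among the 734 matched genes called higher in PTS3 on every scale it was 11 (1.5%), and among the 1451 matched genes called higher in DTL1 it was 2 (0.138%). The AP-1 letters TGACTCA were found in 5.16% of all genes, 5.18% of the PTS3 genes and 5.58% of the DTL1 genes, and overlap no HNF4 letters in the windows shown. The HNF4 letters began 52 bases before the start in Aspdh, 39 in Slc3a1 and 71 in Treh. Aspdh was 322 to 474 TPM (median 410) in PTS3 and 15.4 (mouse 1), 3.05 and 6.08 (mouse 3) and 3.14 TPM (mouse 5) in DTL1 (log2 difference 5.81, SE 0.47, adjusted p = 4.3e-05). Treh was 82.2 to 131 TPM (median 105) against 11.1 (mouse 1), 2.12 and 0.8 (mouse 3) and 1.27 TPM (mouse 5) in DTL1 (log2 difference 4.69, SE 0.60, adjusted p = 0.00021). Without DTL1 mouse 1, the highest of the DTL1 mice for both, the differences were 6.41 (Aspdh) and 5.49 (Treh). A match of letters is a description of the sequence and no evidence of binding.

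Organic ion carriers, which take up drugs, urate and metabolites from blood and pass them into urine, were the list with the highest median in PTS3. Of 21 tested, 15 were higher in PTS3 and 3 in DTL1, and 15 and 1 were called on every scale. The median was 3.72 log2 units higher in PTS3. For this and the other proximal lists below, the shares of all genes tested were 5.71% higher in PTS3 and 70.9% in DTL1, and 4.69% and 10.6% on every scale. Slc22a7, a basolateral organic anion carrier, was 1079 to 1865 TPM (median 1451) in PTS3 and 20.9 (mouse 1), 5.83 and 5.78 (mouse 3) and 49.6 TPM (mouse 5) in DTL1 (log2 difference 6.20, SE 0.62, adjusted p = 8.2e-05). Mice 1 and 5 lay above mouse 3 in DTL1, and all stayed far below PTS3. The urate carrier Slc22a12 was 586 to 782 TPM (median 692) against 54.2 (mouse 1), 9.35 and 19 (mouse 3) and 9.91 TPM (mouse 5) in DTL1 (log2 difference 5.08, SE 0.53, adjusted p = 9.6e-05). The apical cation exporter Slc47a1 was 290 to 516 TPM (median 409) against 17 (mouse 1), 11.2 and 8.25 (mouse 3) and 12.6 TPM (mouse 5) in DTL1 (log2 difference 4.88, SE 0.22, adjusted p = 5.5e-06). The phosphate and anion carriers Slc17a1 and Slc17a3 were higher by 4.56 and 4.80. Of the 3 higher in DTL1 (Abcc4, Slc2a9 and Slc22a8), only Abcc4 was called on every scale. Abcc4, an exporter of cyclic nucleotides and urate, was 0 to 1.12 TPM (median 0) in PTS3 and 56.2 (mouse 1), 31.5 and 46.8 (mouse 3) and 21.8 TPM (mouse 5) in DTL1, higher in DTL1 by 4.96. With 1 mouse left out at a time, the log2 difference ran from 5.44 to 6.88 for Slc22a7 (without DTL1 mouse 3 and DTL1 mouse 5) and from 4.62 to 5.79 for Slc22a12 (highest without DTL1 mouse 1).

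The carriers that recover glucose, amino acids, phosphate and vitamins from the filtrate differed less as a list. Of 29 tested, 16 were higher in PTS3 and 5 in DTL1 (15 and 2 on every scale), with a median of 1.65 in favour of PTS3. Slc7a13, the aspartate and glutamate carrier marking this segment, was 1115 to 1769 TPM (median 1466) in PTS3 and 85 (mouse 1), 22.7 and 32.4 (mouse 3) and 30.5 TPM (mouse 5) in DTL1 (log2 difference 5.13, SE 0.40, adjusted p = 3.7e-05). Slc3a1 was 450 to 812 TPM (median 702) against 56.3 (mouse 1), 24.9 and 22.8 (mouse 3) and 41.9 TPM (mouse 5) in DTL1 (log2 difference 4.08, SE 0.31, adjusted p = 3.3e-05). Its classical partner Slc7a9 was 25.4 to 47.5 TPM (median 35.4) against 5.49 (mouse 1), 5.64 and 1.87 (mouse 3) and 5.65 TPM (mouse 5) in DTL1 (log2 difference 2.67, SE 0.27, adjusted p = 8.4e-05). In each case mouse or piece made little difference beside the distance of the groups. The glucose carriers split. Slc5a1, the high-affinity carrier, was 23.6 to 54.9 TPM (median 37.3) in PTS3 and 7.89 (mouse 1), 3.19 and 9.07 (mouse 3) and 5.41 TPM (mouse 5) in DTL1 (log2 difference 2.42, SE 0.27, adjusted p = 0.00012). Slc5a2, the low-affinity carrier of the early proximal tubule, was listed at 0 in every PTS3 piece and at 14.6 (mouse 1), 10.9 and 5.83 (mouse 3) and 20.7 TPM (mouse 5) in DTL1. The DTL1 level is of the order of 10 TPM that 8 receptor genes also reached in the DTL1 piece of mouse 1, 18 and 10 in those of mouse 3 and 85 in that of mouse 5. Slc3a2, the basolateral heavy subunit, was also higher in DTL1, at 166 (mouse 1), 188 and 191 (mouse 3) and 197 TPM (mouse 5) in DTL1 against 14.3 to 35.1 TPM (median 20.4); its glomerular mean was 252 TPM. The peptide carrier Slc15a2 and the ascorbate carrier Slc23a1 were higher in PTS3 by 3.20 and 3.98 (adjusted p = 3.9e-06 and 4.1e-05).

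Of 10 endocytic and scaffold genes, 8 were higher in PTS3 and 2 in DTL1 (8 and 1 on every scale, median 2.28). Lrp2 (megalin) was 29.4 to 38.9 TPM (median 34.3) in PTS3 and 5.45 (mouse 1), 3.96 and 5.94 (mouse 3) and 2.86 TPM (mouse 5) in DTL1 (log2 difference 2.74, SE 0.28, adjusted p = 8.7e-05), Cubn (cubilin) was higher in PTS3 by 2.24. Their anchor Amn was 115 to 183 TPM (median 152) against 10.6 (mouse 1), 8.63 and 8.04 (mouse 3) and 7.79 TPM (mouse 5) in DTL1 (log2 difference 3.94, SE 0.19, adjusted p = 7.4e-06). The microvillar scaffold Pdzk1 was 1258 to 1693 TPM (median 1413) against 152 (mouse 1), 84.7 and 103 (mouse 3) and 134 TPM (mouse 5) in DTL1 (log2 difference 3.54, SE 0.19, adjusted p = 1.1e-05). Ap1m2, an epithelial clathrin adaptor, ran the other way at 0.44 to 9.36 TPM (median 2.29) in PTS3 and 96.5 (mouse 1), 84.8 and 104 (mouse 3) and 108 TPM (mouse 5) in DTL1 (log2 difference 4.91, SE 0.41, adjusted p = 4.7e-05). Of 17 brush border genes, 11 were higher in PTS3 and 4 in DTL1 (11 and 1 on every scale, median 2.45). The metalloprotease meprin subunits Mep1a and Mep1b were higher in PTS3 by 3.57 and 3.74. Ggt1, which splits glutathione at the cell surface, was 981 to 1857 TPM (median 1457) against 217 (mouse 1), 122 and 109 (mouse 3) and 162 TPM (mouse 5) in DTL1 (log2 difference 3.17, SE 0.24, adjusted p = 3.2e-05). Acy3, an aminoacylase, was 5083 to 7138 TPM (median 5747) against 516 (mouse 1), 268 and 394 (mouse 3) and 599 TPM (mouse 5) in DTL1 (log2 difference 3.66, SE 0.23, adjusted p = 1.8e-05). Enpep, the aminopeptidase that trims angiotensin II, was the brush border gene called higher in DTL1 on every scale. It was 0 to 2.14 TPM (median 0.735) in PTS3 and 114 (mouse 1), 124 and 134 (mouse 3) and 80.9 TPM (mouse 5) in DTL1 (log2 difference 5.93, SE 0.30, adjusted p = 8.4e-06). The glomerulus had a mean of 1340 TPM. Villin (Vil1), the actin bundler of microvilli, remained at 28.7 (mouse 1), 13.9 and 18.6 (mouse 3) and 39.8 TPM (mouse 5) in DTL1 against 71.6 to 91.5 TPM (median 75.3) in PTS3 (log2 difference 1.51, adjusted p = 0.0019).

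Of 26 fatty acid and ketone genes, 17 were higher in PTS3 and 3 in DTL1 (16 and 2 on every scale, median 1.56). The medium-chain dehydrogenase Acadm was 2822 to 3890 TPM (median 3761) in PTS3 and 620 (mouse 1), 414 and 378 (mouse 3) and 647 TPM (mouse 5) in DTL1 (log2 difference 2.71, SE 0.21, adjusted p = 3.4e-05). The peroxisomal enzyme Ehhadh was 611 to 792 TPM (median 636) against 89.9 (mouse 1), 46.4 and 45.5 (mouse 3) and 99.2 TPM (mouse 5) in DTL1 (log2 difference 3.15, SE 0.28, adjusted p = 5.6e-05). Acaa2, the mitochondrial thiolase, and Acsl1, a long-chain acyl-CoA synthetase, went the other way, at 0 to 5.2 TPM and 0.01 to 3.86 TPM in PTS3 against 119 to 171 TPM and 37.7 to 99.9 TPM in DTL1, and both were higher in DTL1 on every scale. Of 13 gluconeogenic and fructose genes, 10 were higher in PTS3 and 2 in DTL1 (9 and 0 on every scale, median 2.42). Pck1, the gatekeeping enzyme of gluconeogenesis, was 640 to 1850 TPM (median 1122) in PTS3 and 77.4 (mouse 1), 43.9 and 31.4 (mouse 3) and 97.3 TPM (mouse 5) in DTL1 (log2 difference 4.05, SE 0.43, adjusted p = 0.0001). Mouse 3 was the lowest of the PTS3 mice. Fbp1, a further enzyme of that pathway, was higher in PTS3 by 3.35. Glycolytic genes did not share this pattern. In all, 2 of 17 were higher in PTS3 and 7 in DTL1 (0 and 4 on every scale). For all genes tested the shares were 5.71% and 70.9% (4.69% and 10.6% on every scale). The list's median turned from 0.80 in favour of DTL1 as deposited to 0.66 in favour of PTS3 after median ratio rescaling. The 4 called higher in DTL1 on every scale were Hk1, Pfkl, Pkm and the glucose carrier Slc2a1. Hk1, the hexokinase of most non-proximal cells, was 1.7 to 5.89 TPM (median 4.91) in PTS3 and 110 (mouse 1), 117 and 80.3 (mouse 3) and 67.3 TPM (mouse 5) in DTL1 (log2 difference 4.11, SE 0.27, adjusted p = 2e-05). Pkm was 39.5 to 63.9 TPM (median 49.4) against 418 (mouse 1), 374 and 411 (mouse 3) and 265 TPM (mouse 5) in DTL1 (log2 difference 2.81, SE 0.23, adjusted p = 4.5e-05).

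Of 24 detoxification genes, 15 were higher in PTS3 and 3 in DTL1 (15 and 1 on every scale, median 2.14). Of the glutathione genes on this list, Gss, Gclc, Gclm and Gpx3 were higher in PTS3 and Gsta4 in DTL1. Gsta2, Gpx1 and Gstm1 were not called as deposited. Gss, the last step of glutathione synthesis, was 1269 to 1755 TPM (median 1490) in PTS3 and 191 (mouse 1), 96.2 and 150 (mouse 3) and 207 TPM (mouse 5) in DTL1 (log2 difference 3.16, SE 0.21, adjusted p = 2e-05). The secreted peroxidase Gpx3 was 2018 to 2850 TPM (median 2795) against 176 (mouse 1), 247 and 177 (mouse 3) and 221 TPM (mouse 5) in DTL1 (log2 difference 3.67, SE 0.13, adjusted p = 2.7e-06). Hsd11b1, which regenerates active glucocorticoid, was 2195 to 3066 TPM (median 2932) against 173 (mouse 1), 89.5 and 17.5 (mouse 3) and 54.9 TPM (mouse 5) in DTL1 (log2 difference 5.23, SE 0.47, adjusted p = 5.8e-05; 5.85 without DTL1 mouse 1). Gstm1 was abundant in both, at 5438 to 6446 TPM (median 5737) in PTS3 and 7337 (mouse 1), 6687 and 7142 (mouse 3) and 7864 TPM (mouse 5) in DTL1. It was not called as deposited (log2 difference 0.35 in favour of DTL1, adjusted p = 0.021), and was called on both other scales in opposite directions, by 1.12 in favour of PTS3 after median ratio rescaling and by 1.40 in favour of DTL1 after quantile normalization. A related transferase, Gstm2, was among the 20 largest differences in favour of DTL1, at 0 to 3.77 TPM (median 0.775) in PTS3 and 1684 (mouse 1), 1776 and 1786 (mouse 3) and 1425 TPM (mouse 5) in DTL1. The 2 genes are close copies, so reads may have been split between them. The glomerulus had 220 TPM and the long-loop descending limb 45.5 TPM of Gstm2.

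Mitochondrial transcripts were lower in DTL1. All 7 genes of the mitochondrial genome that were tested were higher in PTS3 on every scale (the other 6 are listed at 0 in every piece), with a median of 3.16. The complex I subunit mt-Nd1 was 27090 to 44592 TPM (median 31770) in PTS3 and 1998 (mouse 1), 1320 and 1515 (mouse 3) and 2543 TPM (mouse 5) in DTL1 (log2 difference 4.08, SE 0.23, adjusted p = 1.1e-05). Nuclear-encoded respiratory chain genes differed less: 29 of 89 were higher in PTS3 and 4 in DTL1 (13 and 2 on every scale), with a median of 0.80. The shares of all genes tested were 5.71% and 70.9% (4.69% and 10.6% on every scale). Median ratio rescaling would call 81 of the 89 higher in PTS3 and quantile normalization 18. As TPM share 1 total, and mitochondrial and Kap transcripts took a large part of it in PTS3 (the 10 most abundant genes held 19.4% to 27.5% of TPM, against 7.66% to 8.24% in DTL1), the deposited values of other genes move with them.

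**Figure D3:**
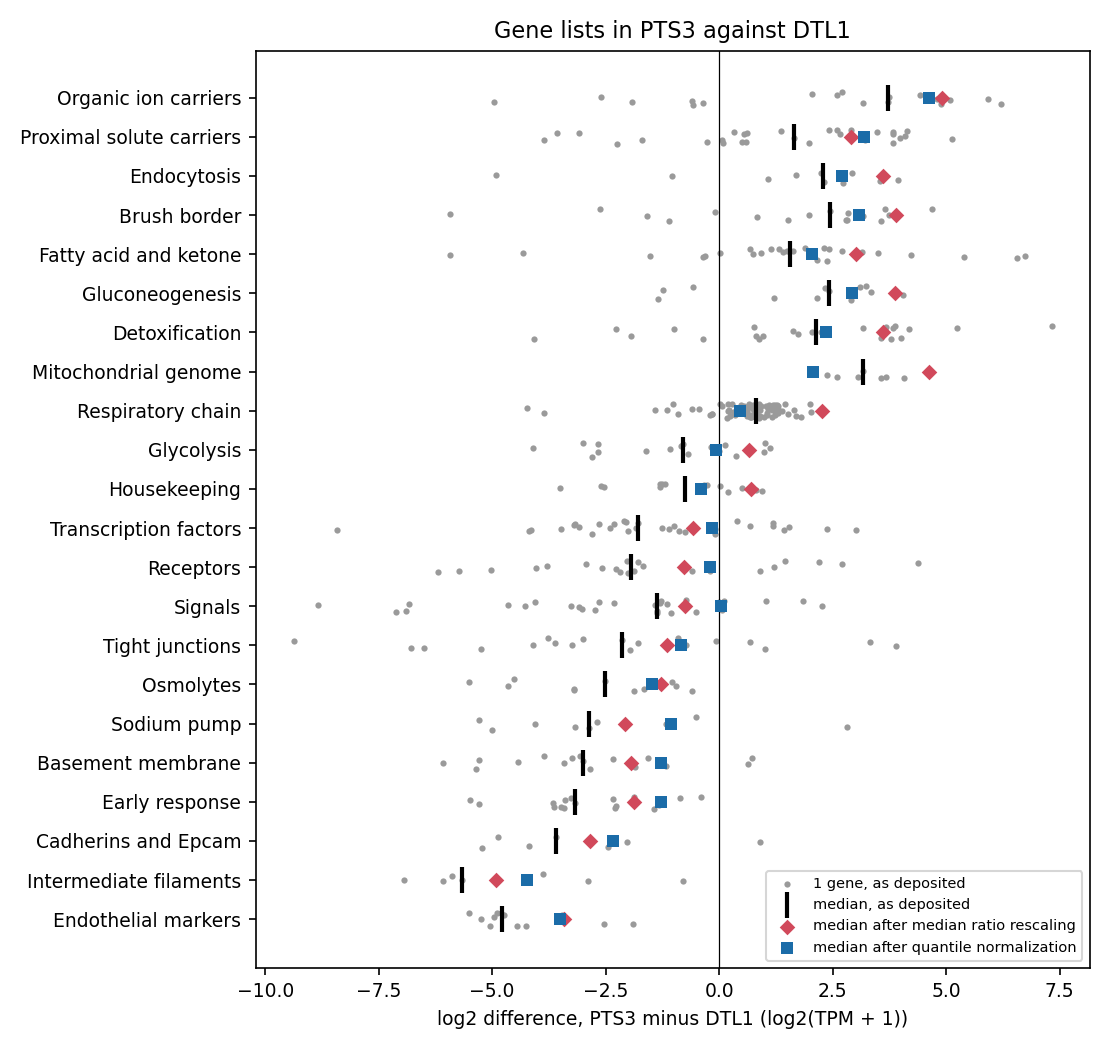
Log2 difference in log2(TPM + 1), PTS3 minus DTL1, for the tested genes of 22 lists (grey points, as deposited), with the list medians as deposited (black bars), after median ratio rescaling (red diamonds) and after quantile normalization (blue squares). The proximal function lists and the mitochondrial genome lie to the right of 0 on all 3 scales, the keratin, cadherin, basement membrane and endothelial lists to the left, and the glycolysis, housekeeping and signal medians change side with the scale.

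The lower levels in DTL1 varied in size among the genes called higher in PTS3. Among the 551 genes called higher in PTS3 with a mean of 100 TPM or more there, the DTL1 mean was a median of 22.4% of the PTS3 mean, 50 genes were below 5% and 3 below 1%, the lowest being 0.103%. Kap stood at 3.32% and Napsa at 3.3% of their PTS3 means. A call required a difference of at least 1 log2 unit, which bounds these shares from above (highest 54%). The DTL1 pieces also held proximal markers at a sum of 1879 to 6216 TPM and a broad low-level background. How far any proximal cells or this background entered the shares was not tested.

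Water and urea channels marked the border in both directions. Besides Slc14a2, Aqp7, which passes water and glycerol, was 53.1 to 77.5 TPM (median 66) in PTS3 and 5.92 (mouse 1), 4.84 and 1.14 (mouse 3) and 1.8 TPM (mouse 5) in DTL1 (adjusted p = 5.5e-05). Aqp11, an intracellular aquaporin, was 61.9 to 99.4 TPM (median 81.8) against 4.43 (mouse 1), 5.44 and 9.42 (mouse 3) and 17.8 TPM (mouse 5) in DTL1 (log2 difference 3.09, SE 0.42, adjusted p = 0.00027). Aqp1, the water channel of the proximal tubule and the long descending limb, was 266 to 661 TPM (median 508) in PTS3 and 227 (mouse 1), 14.8 and 18.1 (mouse 3) and 48.6 TPM (mouse 5) in DTL1 (log2 difference 3.04, SE 0.79, adjusted p = 0.0071). Mouse 1 was several times above the other DTL1 mice for Aqp1 but below every PTS3 piece; without mouse 1 the difference was 4.03 and without DTL1 mouse 3 it was 2.17. Aqp4 was higher in PTS3 by 1.73. Aqp2, the vasopressin-regulated channel of the collecting duct, was listed at 0 in PTS3 and at 5.19 (mouse 1), 11.7 and 34.5 (mouse 3) and 58.7 TPM (mouse 5) in DTL1. Aqp2 is itself one of the distal and collecting duct markers summed above. Of the 13 aquaporin and urea transporter genes listed, 6 were tested, 4 of them higher in PTS3 and 2 in DTL1 on every scale. The shares of all genes tested were 4.69% and 10.6%. The 2 in DTL1, Slc14a2 and Aqp2, passed the filter through the DTL1 mice alone. Slc14a1 was not tested, at 0.41 to 1.14 TPM in DTL1.

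Of 17 tested thin limb genes, a list drawn up with earlier results of these data known, 15 were higher in DTL1 and 2 in PTS3 (12 and 2 on every scale, median 4.39 in favour of DTL1). For all genes tested the shares were 70.9% and 5.71% (10.6% and 4.69% on every scale), with a median of 1.77. Of the 20 genes listed, 6 were at 0 in every PTS3 piece. Slc14a2 and Htr4, among them, passed the filter through the DTL1 mice alone, which fixes their direction in this count. Htr4, a serotonin receptor coupled to cyclic AMP, was listed at 0 in every PTS3 piece and was 85.3 (mouse 1), 72.3 and 94 (mouse 3) and 53.3 TPM (mouse 5) in DTL1. Bst1, a cell-surface enzyme that makes cyclic ADP-ribose, was 0 to 4.72 TPM (median 0.125) in PTS3 and 359 (mouse 1), 271 and 376 (mouse 3) and 507 TPM (mouse 5) in DTL1 (log2 difference 8.04, SE 0.39, adjusted p = 6.7e-06). Jag1, a Notch ligand, was 0 to 0.69 TPM (median 0.275) against 227 (mouse 1), 108 and 135 (mouse 3) and 105 TPM (mouse 5) in DTL1 (log2 difference 6.84). For all 3 the groups were fully apart. Cryab, a small heat shock protein of hypertonic tissue, was already abundant in PTS3 at 721 to 1023 TPM (median 804) and reached 9869 (mouse 1), 5751 and 8155 (mouse 3) and 6576 TPM (mouse 5) in DTL1 (log2 difference 3.19, SE 0.18, adjusted p = 1.3e-05). Spp1 (osteopontin) was 3.12 to 36.9 TPM (median 6.23) against 1870 (mouse 1), 624 and 1249 (mouse 3) and 1374 TPM (mouse 5) in DTL1 (log2 difference 7.12, SE 0.30, adjusted p = 4.5e-06). The 2 genes higher in PTS3 were Aqp1 and the ion-pore claudin gene Cldn10. The latter was 230 to 270 TPM (median 256) against 24.4 (mouse 1), 27.4 and 11.6 (mouse 3) and 9.13 TPM (mouse 5) in DTL1 (log2 difference 3.90, SE 0.32, adjusted p = 4.4e-05).

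Genes of the DTL1 side were also set against all 15 groups. Of the 2245 genes called higher in DTL1 on every scale, 751 (33.5%) had a glomerular mean at or above the DTL1 mean and 294 (13.1%) a DTL2 mean at or above it. A further condition, added after the data were seen, kept the genes that were also called higher in DTL1 than in DTL2 and had their highest level of all 15 groups in DTL1. Passing over predicted and similar names, 330 genes met it, 1.56% of those tested and 14.7% of the 2245. The tested genes and the 2245 include such names, so these shares are not like for like. Many of the 330 were barely above the next group, with ratios down to 1 (Ptgis). The odorant receptor genes Olfr745, Olfr1406 and Olfr432, at 11 to 14.7 TPM in DTL1, were also among them. The DTL2 condition is that of the deposited scale: of the 330, 147 were still called above DTL2 after median ratio rescaling and 179 after quantile normalization. Without DTL2 mouse 1, 2 or 3 the numbers were 179, 223 and 198, and without DTL1 mouse 1, 3 or 5 they were 273, 269 and 294. For 8 of the 330 the mean TPM + 1 was at least 10 times that of the next group, namely Corin, Htr4, Uncx, Wnt11, Rbp4, Aox3, Prss12 and Mcph1. Corin, Wnt11, Aox3 and Mcph1 were still called above DTL2 after either rescaling and without any 1 mouse of DTL1 or DTL2. Htr4, Uncx, Rbp4 and Prss12 failed the filter on low values without any 1 DTL1 mouse. They passed it through the DTL1 mice alone, which fixes the direction of their calls above DTL2. Uncx was listed at 0 in every PTS3 piece and was 230 (mouse 1), 165 and 161 (mouse 3) and 95.1 TPM (mouse 5) in DTL1, a mean of 163 ± 67.7 TPM (SD, n = 3). The next group, the glomerulus, had 2.1 TPM. Wnt11, a secreted Wnt ligand, was 0 to 0.75 TPM (median 0) in PTS3 and spread widely, at 188 (mouse 1), 934 and 335 (mouse 3) and 74.7 TPM (mouse 5) in DTL1. Prss12, a secreted serine protease, was 0 to 8.41 TPM (median 4.98) against 295 (mouse 1), 187 and 267 (mouse 3) and 89.3 TPM (mouse 5) in DTL1 and averaged 12.2 TPM in the next group, the cortical thick limb. Aox3, an aldehyde oxidase, was 64.2 to 81.1 TPM in DTL1, and Rbp4, the retinol carrier, 16.4 to 65.9 TPM. Slc14a2 is among the 330 but not among the 8, since the inner medullary collecting duct also held it, at 2162 ± 676 TPM against 7541 ± 3066 TPM in DTL1 (SD, n = 3 each); the difference between these 2 groups was not tested here.

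**Figure D4:**
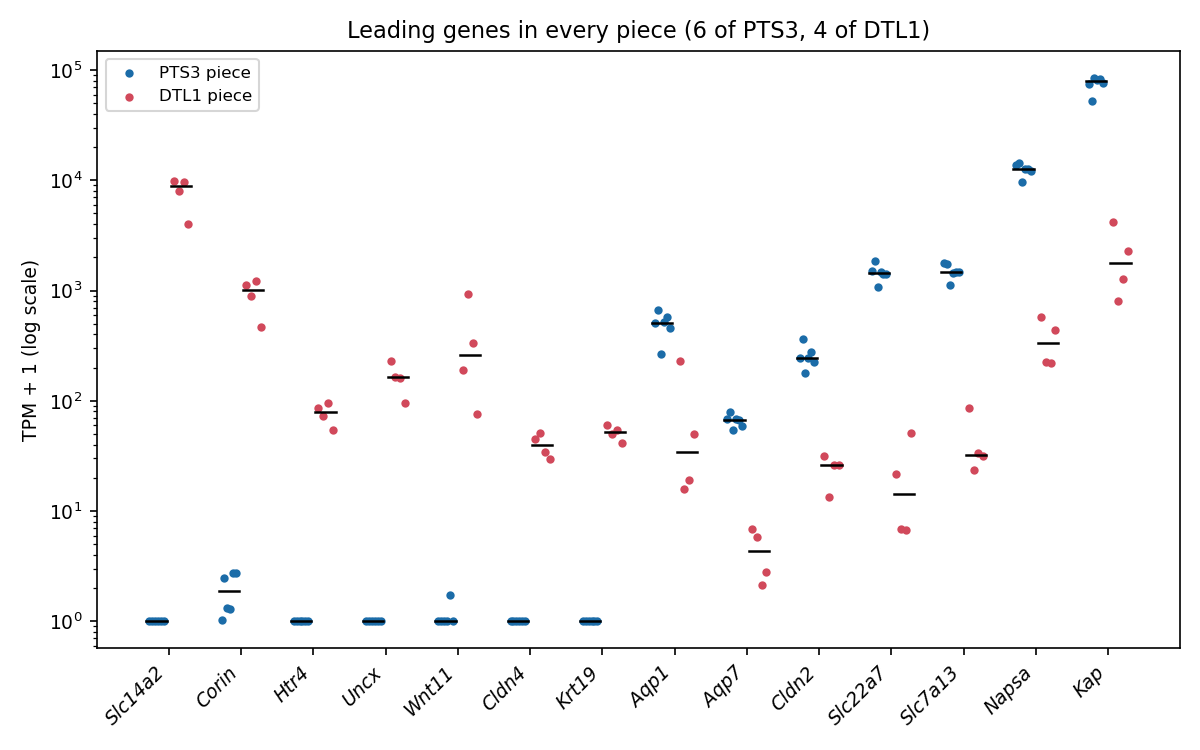
TPM + 1 (log axis) of 14 genes in each of the 6 PTS3 pieces (blue) and 4 DTL1 pieces (red), with the median of the pieces as a black bar. Slc14a2, Corin, Htr4, Uncx, Wnt11, Cldn4 and Krt19 lie at or near 0 TPM in PTS3, and the 7 genes on the right are higher in every PTS3 piece without reaching 0 TPM in any DTL1 piece.

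Transcription factors differed in both directions. Of 31 tested, 6 were higher in PTS3 and 18 in DTL1 (3 and 9 on every scale). For all genes tested the shares were 5.71% and 70.9% (4.69% and 10.6% on every scale). The list's median was 1.78 in favour of DTL1, beside 1.77 for all genes tested. Hnf4a, the nuclear receptor that drives proximal genes, was 94.4 to 142 TPM (median 111) in PTS3 and 13.2 (mouse 1), 6.23 and 6.48 (mouse 3) and 26 TPM (mouse 5) in DTL1 (log2 difference 3.00, SE 0.42, adjusted p = 0.00033). It was lower in every DTL1 piece than in any PTS3 piece. Lower in DTL1 too was Ppara, the regulator of fatty acid oxidation (log2 difference 1.19, adjusted p = 0.0042). On the DTL1 side stood Pax8 and Pax2, which specify renal epithelium. Pax8 was 90 to 131 TPM (median 104) in PTS3 and 837 (mouse 1), 625 and 825 (mouse 3) and 522 TPM (mouse 5) in DTL1 (log2 difference 2.65, SE 0.21, adjusted p = 4.1e-05). Irx3, a patterning factor, was 2.6 to 5.71 TPM (median 3.45) against 91.7 (mouse 1), 111 and 82.4 (mouse 3) and 66.4 TPM (mouse 5) in DTL1 (log2 difference 4.19, SE 0.27, adjusted p = 1.8e-05). Hoxd8 was higher in DTL1 by 3.09. Nr3c1, the glucocorticoid receptor, was 8.07 to 12.8 TPM (median 11.3) against 120 (mouse 1), 102 and 107 (mouse 3) and 97.2 TPM (mouse 5) in DTL1 (log2 difference 3.17, SE 0.18, adjusted p = 1.2e-05). The glomerulus had 98.9 TPM. Id3, an inhibitor of helix-loop-helix factors, was 2.51 to 22.9 TPM (median 7.6) against 2777 (mouse 1), 3624 and 3356 (mouse 3) and 3080 TPM (mouse 5) in DTL1 (log2 difference 8.41, SE 0.20, adjusted p = 7e-07), with 666 TPM in the glomerulus.

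Of 19 tight junction genes tested, 12 were higher in DTL1 and 3 in PTS3 (8 and 3 on every scale). The share higher in DTL1 was thus below the 70.9% of all genes tested, and that on every scale above the 10.6% of all genes. Of all genes tested, 5.71% were higher in PTS3 (4.69% on every scale). The 3 higher in PTS3 were Cldn2, Cldn10 and Cldn3. Cldn2, which forms the cation and water pore of the proximal tubule, was 176 to 362 TPM (median 244) in PTS3 and 30.7 (mouse 1), 12.4 and 25.1 (mouse 3) and 25.4 TPM (mouse 5) in DTL1 (log2 difference 3.32, SE 0.23, adjusted p = 2.6e-05). The Cldn3 call was marginal, at 1.02, 0.82 without DTL1 mouse 5 and 0.92 without PTS3 mouse 2. It was also lost with the replicate block in a fit of all 15 groups and with pieces as separate samples. The same held for protein-coding genes rescaled alone and for a pseudocount of 5. Cldn8, a sealing claudin, was 0 to 2.04 TPM (median 0.4) against 925 (mouse 1), 1279 and 1423 (mouse 3) and 807 TPM (mouse 5) in DTL1 (log2 difference 9.37, SE 0.26, adjusted p = 9.3e-07). Cldn7 was 0 to 7.96 TPM (median 2.4) against 291 (mouse 1), 233 and 257 (mouse 3) and 281 TPM (mouse 5) in DTL1 (log2 difference 6.49, SE 0.25, adjusted p = 3e-06). Cldn4, its partner in tight epithelia, was listed at 0 in PTS3 and was 43.6 (mouse 1), 50.5 and 33.2 (mouse 3) and 28.6 TPM (mouse 5) in DTL1. Cldn19, known from the thick limb, was 0 to 0.49 TPM (median 0.235) against 87.8 (mouse 1), 149 and 203 (mouse 3) and 146 TPM (mouse 5) in DTL1 (log2 difference 6.78). The thick limb's Cldn16 stayed at 0 to 0.31 TPM in DTL1. The adaptor Tjp1 was higher in DTL1 by 4.11 (adjusted p = 2.9e-05), at 30 to 50.9 TPM beside 153 TPM in the glomerulus.

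Of 7 cadherin and adhesion genes, 6 were higher in DTL1 (5 on every scale) and 0 in PTS3, and of 7 keratin and filament genes 6 were (5 on every scale), beside 70.9% of all genes tested (10.6% on every scale). The remaining cadherin, Cdh2, at most 5.22 TPM in any piece, was not called as deposited but was called higher in PTS3 on both other scales (by 1.85 after median ratio rescaling). Epcam, an epithelial adhesion protein of distal nephron and thin limbs, was 20.9 to 40 TPM (median 30.4) in PTS3 and 996 (mouse 1), 993 and 1112 (mouse 3) and 738 TPM (mouse 5) in DTL1 (log2 difference 4.88, SE 0.20, adjusted p = 3.7e-06). E-cadherin (Cdh1) was 7.12 to 16.2 TPM (median 12.4) against 71.1 (mouse 1), 68.4 and 84.7 (mouse 3) and 59.5 TPM (mouse 5) in DTL1 (log2 difference 2.45, SE 0.23, adjusted p = 6.9e-05). Of the keratins of simple epithelia, Krt18 was 0 to 4.88 TPM (median 0.215) against 141 (mouse 1), 238 and 270 (mouse 3) and 248 TPM (mouse 5) in DTL1 (log2 difference 6.94, SE 0.53, adjusted p = 3.5e-05; 7.56 without PTS3 mouse 3). Krt19 and Krt23 were listed at 0 in every PTS3 piece and ran at 40.9 to 59 TPM and 46.3 to 78.6 TPM in DTL1. Of the 8 keratin and filament genes listed, 3 were at 0 in every PTS3 piece. Krt19 and Krt23 passed the filter through the DTL1 mice alone, which fixes their direction in the count above. Krt8, the partner of Krt18, was not called as deposited, at 61.5 to 89.1 TPM (median 75.4) in PTS3 against 145 (mouse 1), 117 and 146 (mouse 3) and 122 TPM (mouse 5) in DTL1. Actb was 516 to 789 TPM (median 565) against 3626 (mouse 1), 4108 and 3722 (mouse 3) and 2919 TPM (mouse 5) in DTL1 (log2 difference 2.53, SE 0.16, adjusted p = 1.8e-05). It was higher in DTL1 on all 3 scales and belongs to a housekeeping list in which 7 of 14 genes were higher in DTL1 as deposited and 2 on every scale.

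Of 17 basement membrane genes, 15 were higher in DTL1 and 0 in PTS3 (7 on every scale, median 3.00), beside 70.9%, 10.6% and a median of 1.77 for all genes tested. Nid2, which links laminin and collagen networks, was 1.29 to 7.51 TPM (median 5.33) in PTS3 and 319 (mouse 1), 406 and 469 (mouse 3) and 309 TPM (mouse 5) in DTL1 (log2 difference 6.07, SE 0.28, adjusted p = 5.4e-06). Lamb1 was 10.2 to 18.1 TPM (median 13.7) against 145 (mouse 1), 199 and 239 (mouse 3) and 117 TPM (mouse 5) in DTL1 (log2 difference 3.41, SE 0.27, adjusted p = 3.8e-05). The endothelial markers rose with these genes, and so the glomerular means are given beside them: 66.3 TPM for Nid2 and 48.9 TPM for Lamb1, each below its DTL1 level. For Nid1 (224 TPM against 55.8 to 102 TPM) and Lamb2 (374 TPM against 68.1 to 95.6 TPM) the glomerulus was above DTL1.

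Cells of the medulla use osmolyte and volume-response genes to balance its salt and urea. Of 11 tested, 9 were higher in DTL1 and 0 in PTS3 as deposited (5 on every scale, median 2.52), beside 70.9%, 10.6% and a median of 1.77 for all genes tested. After median ratio rescaling 5 were higher in DTL1 and 6 were not called (median 1.27), and after quantile normalization 7 were higher in DTL1 and 4 were not called (median 1.48). Nfat5, the transcription factor that switches on the osmolyte genes, was 1.48 to 4.74 TPM (median 2.57) in PTS3 and 28.1 (mouse 1), 40 and 31.4 (mouse 3) and 33 TPM (mouse 5) in DTL1 (log2 difference 3.19, SE 0.26, adjusted p = 4.7e-05). The inositol carrier Slc5a3 was 0.04 to 1.23 TPM (median 1.03) against 85.6 (mouse 1), 35.8 and 32.4 (mouse 3) and 31.8 TPM (mouse 5) in DTL1 (log2 difference 4.66, SE 0.43, adjusted p = 6.6e-05), highest in mouse 1. The amino acid carrier Slc38a2 was 1.65 to 13.8 TPM (median 4.29) against 188 (mouse 1), 87.9 and 115 (mouse 3) and 145 TPM (mouse 5) in DTL1 (log2 difference 4.52, SE 0.46, adjusted p = 8.9e-05). Akr1b3, which makes sorbitol, was higher in DTL1 by 1.65 as deposited, and after quantile normalization, and was not called after median ratio rescaling (97.8 to 207 TPM against 41.3 to 63.1 TPM in PTS3).

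Of 9 sodium pump subunits and regulators tested, 7 were higher in DTL1 and 1 in PTS3 (4 and 1 on every scale). For all genes tested the shares were 70.9% and 5.71% (10.6% and 4.69% on every scale). As deposited, the share of this list higher in DTL1 was near that of all genes. Fxyd2, the pump regulator of the tubule, was 4071 to 5089 TPM (median 4529) in PTS3 and 704 (mouse 1), 479 and 593 (mouse 3) and 723 TPM (mouse 5) in DTL1 (log2 difference 2.81, SE 0.14, adjusted p = 8.5e-06). It was the 1 gene higher in PTS3. Against it, Fxyd6 was 0 to 5.59 TPM (median 2.15) in PTS3 and 83.7 (mouse 1), 137 and 116 (mouse 3) and 101 TPM (mouse 5) in DTL1 (log2 difference 5.01, SE 0.29, adjusted p = 1.3e-05). The beta subunit Atp1b3 was 45.3 to 77.2 TPM (median 66) against 504 (mouse 1), 525 and 495 (mouse 3) and 397 TPM (mouse 5) in DTL1 (log2 difference 2.87, SE 0.19, adjusted p = 2e-05). Fxyd4, known from the collecting duct, was 0 to 1.04 TPM (median 0.095) against 35.5 (mouse 1), 57.4 and 32.2 (mouse 3) and 68.8 TPM (mouse 5) in DTL1. Atp1b1 was not called as deposited, at 357 to 523 TPM against 521 to 762 TPM.

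Of 22 receptor genes tested, 5 were higher in PTS3 and 14 in DTL1 (3 and 6 on every scale), beside 5.71% and 70.9% of all genes tested (4.69% and 10.6% on every scale). Pth1r, the parathyroid hormone receptor that sets phosphate recovery, was 407 to 707 TPM (median 538) in PTS3 and 34.6 (mouse 1), 16.5 and 13.9 (mouse 3) and 28.4 TPM (mouse 5) in DTL1 (log2 difference 4.39, SE 0.29, adjusted p = 2e-05). The fibroblast growth factor receptor Fgfr4 was also higher in PTS3, by 2.70 (adjusted p = 0.0009). In DTL1 stood Ednrb, an endothelin receptor, at 0.9 to 6.25 TPM (median 3.07) in PTS3 against 266 (mouse 1), 270 and 134 (mouse 3) and 196 TPM (mouse 5) in DTL1 (log2 difference 5.74, SE 0.25, adjusted p = 4.6e-06), with 76.9 TPM in the glomerulus. Adora1, an adenosine receptor, was listed at 0 in PTS3 and was 30.3 (mouse 1), 36.7 and 32.9 (mouse 3) and 30.7 TPM (mouse 5) in DTL1. Npr1, the receptor of atrial natriuretic peptide, was 0 to 1.58 TPM (median 0.37) against 20.6 (mouse 1), 25.9 and 20.9 (mouse 3) and 14.2 TPM (mouse 5) in DTL1 (log2 difference 3.79, SE 0.40, adjusted p = 9.9e-05), with a glomerular mean of 74.6 TPM.

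Of 29 signalling genes tested, 20 were higher in DTL1 and 3 in PTS3 (9 and 2 on every scale, median 1.38 in favour of DTL1 as deposited and 0.05 in favour of PTS3 after quantile normalization). As deposited, the share higher in DTL1 and the median were near those of all genes tested (70.9% and 1.77). On every scale the share higher in DTL1 was above the 10.6% of all genes tested. The shares of all genes higher in PTS3 were 5.71% as deposited and 4.69% on every scale. Wnt7b, a Wnt ligand, was 0 to 1.6 TPM (median 0) in PTS3 and 231 (mouse 1), 136 and 163 (mouse 3) and 77 TPM (mouse 5) in DTL1 (log2 difference 6.89). Pdgfa, a growth factor for stromal cells, was 8.02 to 17.3 TPM (median 12.4) against 97 (mouse 1), 153 and 113 (mouse 3) and 87.2 TPM (mouse 5) in DTL1 (log2 difference 3.02, SE 0.22, adjusted p = 3e-05). Edn3, an endothelin, was listed at 0 in PTS3 and was 283 (mouse 1), 324 and 289 (mouse 3) and 243 TPM (mouse 5) in DTL1, with 3.45 TPM in the glomerulus and 26.3 TPM in the long descending limb. The next group for Edn3, the outer medullary collecting duct, had 103 TPM. The ligand Edn3 and the receptor Ednrb were thus both on the DTL1 side. Angptl4, a lipase inhibitor induced by fatty acids, was higher in PTS3 by 2.27 (adjusted p = 0.003).

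The 20 largest differences in favour of DTL1 included, besides genes given above, several secreted and surface proteins. Angpt2, a vascular growth factor, was 0 to 1 TPM (median 0.205) in PTS3 and 2232 (mouse 1), 2402 and 3162 (mouse 3) and 1598 TPM (mouse 5) in DTL1, with 71.7 TPM in the glomerulus and 505 TPM in DTL2. The next group, the inner medullary descending limb (DTL3), had 587 TPM. Thbs1 (thrombospondin) was 0 to 0.71 TPM (median 0) against 736 (mouse 1), 693 and 804 (mouse 3) and 478 TPM (mouse 5) in DTL1, with 56.6 TPM in the glomerulus. The thin ascending limb was close to DTL1 for Thbs1, with a mean of 493 TPM against 654 TPM in DTL1. Plet1, a surface protein of progenitor-like and ductal epithelia, was at most 0.33 TPM in PTS3 and was 370 (mouse 1), 553 and 586 (mouse 3) and 429 TPM (mouse 5) in DTL1. Apela, a peptide ligand of the apelin receptor, was 2.14 to 5.94 TPM (median 2.44) against 1089 (mouse 1), 989 and 1502 (mouse 3) and 1070 TPM (mouse 5) in DTL1. Timp2, a protease inhibitor, was 0 to 1.51 TPM (median 0.5) against 465 (mouse 1), 434 and 411 (mouse 3) and 338 TPM (mouse 5) in DTL1 but had 639 TPM in the glomerulus. All 20 genes were called on every scale.

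Immediate early and stress genes, which dissection is known to induce, were higher in DTL1 in 15 of 17 cases, with 7 on every scale and 0 higher in PTS3. Of all genes tested 70.9% were higher in DTL1 as deposited and 10.6% on every scale. Dusp1, a phosphatase induced within minutes of stress, was 18.5 to 41 TPM (median 25.2) in PTS3 and 1801 (mouse 1), 661 and 1050 (mouse 3) and 737 TPM (mouse 5) in DTL1 (log2 difference 5.29, SE 0.34, adjusted p = 1.9e-05), highest in mouse 1. Klf6 was 0.29 to 7.24 TPM (median 4.32) against 170 (mouse 1), 122 and 128 (mouse 3) and 238 TPM (mouse 5) in DTL1 (log2 difference 5.50, SE 0.43, adjusted p = 3.8e-05), and Junb was higher in DTL1 by 3.48. Fos itself was 0 to 0.05 TPM in PTS3 and 3.09 to 4.44 TPM in DTL1, under the 10 TPM floor. The time from death to lysis for each segment is not in the labels, and its part in these differences was not tested.

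The long-loop descending limb in the outer medulla (DTL2, 7 pieces of 3 mice) gave a second thin limb to set DTL1 against. Between DTL1 and DTL2, 23915 genes were tested, and with 10 TPM in the higher group 1736 (7.26%) were higher in DTL1 and 649 (2.71%) in DTL2. Without the floor these counts were 3794 (15.9%) and 719 (3.01%). Without DTL2 mouse 1, 2 or 3 the count higher in DTL1 was 776, 1002 and 804, and without DTL2 mouse 1 the count higher in DTL2 was 422. The balance turned with the scaling, to 648 against 2016 after median ratio rescaling and 668 against 777 after quantile normalization. Slc14a2 and Corin were 3.25 and 0.63 TPM in DTL2, and both were higher in DTL1 (adjusted p = 6e-06 and 1.4e-05). Cldn4 and Krt23 were also higher in DTL1, by 4.39 and 5.80. Aqp1 was 6527 TPM in DTL2, higher than in DTL1 by 6.81 (adjusted p = 0.0012), so PTS3 lay between the 2 descending limbs. Spp1 was 26220 TPM and Cdh13 309 TPM there, higher than in DTL1 by 4.30 and 4.59 (adjusted p = 7.8e-05 and 6.7e-05). Bst1, Epha7 and Cldn7 were not called between the thin limbs. Some PTS3 carriers that were low in DTL1 were present in DTL2: Slc47a1 at 175 TPM, Slc6a18, a neutral amino acid carrier, at 920 TPM and Cldn2 at 539 TPM, all higher than in DTL1 (adjusted p = 0.00013, 0.00019 and 3.7e-05). The comparisons with PTS3 and with DTL2 share the 3 DTL1 mice, so a value that is high or low in them enters both.

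**Figure D5:**
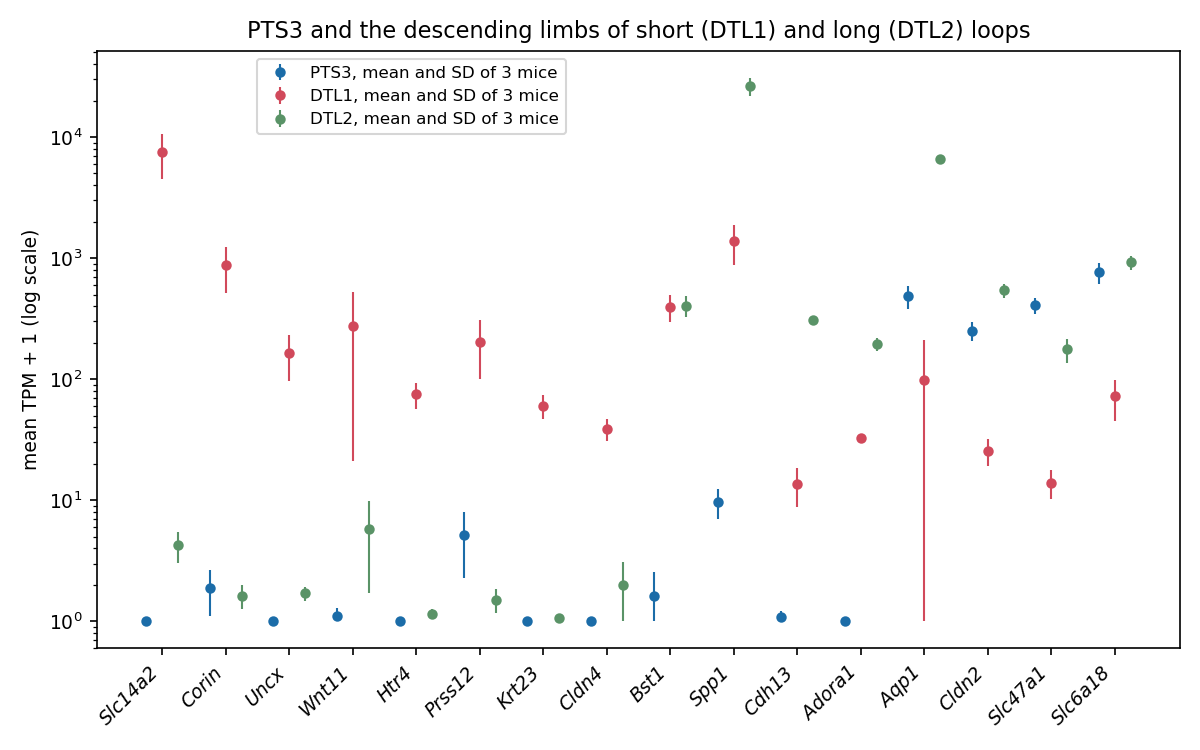
Mean TPM + 1 (log axis; bars are the SD over 3 mice, ending at 0 TPM where they would pass it) of 16 genes in PTS3 (blue), DTL1 (red) and DTL2 (green). Slc14a2, Corin, Uncx, Wnt11 and Htr4 are high in DTL1 and low in the other 2 segments shown, whereas Aqp1, Cldn2, Slc47a1 and Slc6a18 are lower in DTL1 than in both PTS3 and DTL2.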

How the data were processed

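Microdissected segments were sequenced, and the deposited table gives TPM for each gene and piece, which the authors computed; STAR 2.5.4a and RSEM 1.3.0 are named per the submitters' processing notes. The genome build and annotation are not given in the sources used here. Read depth cannot be read back from TPM, is unknown here, and no counting intervals were made.

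Pieces of 1 mouse number and segment were averaged as log2(TPM + 1), and the mouse was the replicate (3 in each group). Genes at 1 TPM or more in at least 3 mice were kept. The groups compared were fitted with limma 3.58.1 (lmFit, eBayes with trend; R 4.3.3), with Benjamini-Hochberg adjustment over all genes tested and thresholds of 0.05 and a log2 difference of 1. An exact permutation test of 3 mice against 3 cannot give a two-sided p below 0.1. Nothing states that mice shared no cage or day, so p-values measure the spread between these samples.

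On simulated data with changes in 50 genes of each size, 28%, 60%, 84% and 82% of changes of 1.5, 2, 3 and 4 log2 units were recovered for PTS3 against DTL1 among 21146 genes, with 4 other genes called. For DTL1 against DTL2 among 23915 genes the shares were 20%, 58%, 68% and 82%, with 3 others. Only these few genes were changed, whereas in the data 70.9% of genes were called higher in DTL1 than in PTS3. The Benjamini-Hochberg adjustment is stricter where few genes change, so the recovered shares do not give the sensitivity of the real comparisons.

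Members, gene lists and tests were chosen with earlier results of these data known. Named genes were those of the lists and the 20 largest differences in each direction among called genes with 10 TPM or more and no overlap of the mice, passing over predicted, mitochondrial, ribosomal protein and pseudogene names; Uncx, Wnt11, Rbp4, Aox3, Prss12 and Mcph1 were named after their values were seen. Promoters came from RefSeq (GRCm38.p6), matched by symbol. Alternatives covered the pseudocount, filter, scaling, averaging, fit, floor and each mouse. Symbols are those of the table. Figures were drawn with matplotlib 3.10.9 in Python 3.11.15. The single-cell samples were not analysed here. Results for some genes of the lists are not reported here.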

Additional observations from a re-analysis of the deposited data

How the results depend on the processing

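The count of genes higher in DTL1 depended most on the processing, and the cause was not tested. All calls without the floor (14982) came to 7553 with a filter at 5 TPM, 9845 for protein-coding genes rescaled alone, 8805 with a pseudocount of 5 and 2890 after quantile normalization. They came to 6004 to 14893 with 1 mouse left out, the low values (6161, 6004 and 6583) being those without DTL1 mouse 1, 3 or 5, where genes absent from PTS3 fail the filter on 3 mice; with the same genes tested they were 14664 to 15180. With 10 TPM in DTL1 (6955) they came to 3564 after median ratio rescaling, 2701 after quantile normalization, 2051 with a floor of 50 TPM, 12809 with a floor of 3 TPM, 2245 on every scale, and 5239 to 7001 with 1 mouse left out. Genes higher in PTS3 (1208, and 1027 with 10 TPM) came to 3473 and 2920 after median ratio rescaling, 3332 and 1858 after quantile normalization, and 1040 to 1235 and 956 to 1058 with 1 mouse left out. Without piece a of DTL1 mouse 3, the piece with the most of the macrophage gene C1qb (77.8 TPM, the other DTL1 pieces at most 0.34 TPM), 1205 and 14377 genes were called (an alternative chosen after seeing the data, as were the same-genes and every-scale counts).

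Between DTL1 and DTL2, the 1736 genes higher in DTL1 came to 648 after median ratio rescaling, 668 after quantile normalization (777 in DTL2), 1147 without a filter and 776 to 1729 with 1 mouse left out, and the 649 higher in DTL2 to 2016 after median ratio rescaling and 422 to 684 with 1 mouse left out. Named genes that changed side after median ratio rescaling lay higher in PTS3 there by 0.96 (Atp1b1), 1.12 (Gstm1) and 0.65 (Krt8), and Slc22a8 did so by 0.03 after quantile normalization.

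Mouse numbers 1 and 3 occur in both segments, but deviations from the group means of same-numbered mice correlated at 0.04 (mouse 1) and -0.04 (mouse 3) across genes. Whether they came from the same animal is not stated, and the numbers were not used to pair samples. With the replicate block in a fit of all 15 groups, 1248 genes were higher in PTS3 and 15187 in DTL1 (1042 and 7056 with 10 TPM), and 2204 in DTL1 and 770 in DTL2 for the thin limbs. Depth limits could not be set from TPM.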

Other observations

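A group of 16 interferon-response and antigen presentation genes was picked after their values were seen. All 16 were higher in DTL1 on every scale, with a median log2 difference of 4.27. For all genes tested the shares were 70.9% as deposited and 10.6% on every scale, with a median of 1.77. Because of how the group was picked, its count and median cannot be read as an excess over all genes. Ifit3, an interferon-induced inhibitor of viral translation, was 1.16 to 7 TPM (median 3.17) in PTS3 and 2683 (mouse 1), 1624 and 2205 (mouse 3) and 1618 TPM (mouse 5) in DTL1, beside 52.4 TPM in the glomerulus and 312 TPM in DTL2. The next group, DTL3, had 423 TPM of Ifit3. Bst2, a virion tether, was 1.94 to 11.1 TPM (median 5.46) against 193 (mouse 1), 198 and 170 (mouse 3) and 178 TPM (mouse 5) in DTL1, with 217 TPM in the glomerulus, and H2-K1, an antigen-presenting chain, was 75.9 to 108 TPM (median 80.5) against 821 (mouse 1), 1251 and 907 (mouse 3) and 799 TPM (mouse 5) in DTL1. Summed over the list, DTL1 pieces held 6167 to 6890 TPM, PTS3 pieces 367 to 503 TPM, glomeruli 3168 to 4172 TPM and DTL2 mice 2112 to 3440 TPM.

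A pair of predicted genes stood out for the size of their values. Gm10800 was 1.11 to 5.61 TPM (median 2.3) in PTS3 and 14871 (mouse 1), 14610 and 16119 (mouse 3) and 18795 TPM (mouse 5) in DTL1, with 6152 TPM in the glomerulus and 1619 TPM in DTL2, and Gm10801 was 0.14 to 1.11 TPM (median 0.68) against 3625 (mouse 1), 3360 and 3575 (mouse 3) and 4353 TPM (mouse 5) in DTL1.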
